A study of Mus musculus with 6 samples.

Results

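A20, encoded by Tnfaip3, is the best known brake on NF-kB, and 9 genes of its circle are described here: Tnfaip3 itself, the A20-binding partners Tnip1, Tnip2 and Tnip3, the A20 complex members Tax1bp1, Itch and Rnf11, the deubiquitinase Cyld, and N4bp1. They were chosen by symbol, with earlier results of these data known. All 9 were found among the 23420 genes of the series and passed the filter on low values. Transcript levels came from RNA-seq of bead-purified spleen B cells of TLR9-/- MRL/lpr mice aged 5 to 7 weeks, which the study's methods give as males. In the CL097 group cells were cultured for 4 h with CL097, an imidazoquinoline agonist of TLR7, at 5 µg/ml, and in the unstimulated group without it. Each group had 3 libraries, numbered 1 to 3, from 3 mice. Both groups carried the TLR9 deficiency, a wild-type TLR7 and the lpr mutation of the death receptor Fas, so neither the genotype nor the strain can be compared here. The comparison addresses how B cells with TLR7 but no TLR9 set the transcripts of their own NF-kB inhibitors when TLR7 is engaged.

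TLR7 signals through MyD88 and IRAK kinases to TRAF6, which builds ubiquitin chains that act as a scaffold for the kinases that free NF-kB. A20 edits these chains: it removes some, adds others that mark proteins for degradation, and blocks further chain building by binding. The ABIN proteins encoded by the Tnip genes bind both A20 and ubiquitin, while TAX1BP1, ITCH and RNF11 bring A20 to its targets. CYLD takes chains apart independently of A20. Tnfaip3 is itself a classic NF-kB target gene, so its protein closes a feedback loop, and loss of A20 or of the protein of Tnip1 in mouse B cells or whole mice leads to autoimmunity.

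The starts of these genes were read for the NF-kB consensus, the decamer bound by NF-kB dimers, because 5 of the genes rose together after CL097 and 3 fell. RefSeq (GRCm38.p6) gave a window of 250 bases before the start for 7 of the 9 genes, all but Rnf11 and Itch. On either strand, 4 of the 7 held a match: Tnfaip3, Tnip1, Tnip3 and Cyld. Tnip2, N4bp1 and Tax1bp1 held none in these windows. Among 8861 tested genes with a window, 945 (10.7%) held a match. The stretches that carry the matches follow, each 5′ to 3′ on the strand of its gene and ending at the base before the start, with the matches in capitals.

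Tnfaip3: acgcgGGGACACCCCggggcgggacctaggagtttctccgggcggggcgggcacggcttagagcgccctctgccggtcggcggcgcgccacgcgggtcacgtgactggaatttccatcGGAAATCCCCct
Tnip1: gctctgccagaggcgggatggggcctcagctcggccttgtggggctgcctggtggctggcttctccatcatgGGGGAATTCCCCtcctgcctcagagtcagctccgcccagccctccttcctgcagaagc
Tnip3: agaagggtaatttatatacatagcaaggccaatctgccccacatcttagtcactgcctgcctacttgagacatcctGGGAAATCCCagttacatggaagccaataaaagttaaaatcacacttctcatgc
Cyld: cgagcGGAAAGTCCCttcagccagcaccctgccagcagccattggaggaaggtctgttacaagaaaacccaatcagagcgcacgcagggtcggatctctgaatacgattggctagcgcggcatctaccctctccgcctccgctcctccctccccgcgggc

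These stretches are chr10:19015411-19015540 (minus strand) for Tnfaip3, chr11:54962941-54963070 (minus strand) for Tnip1, chr6:65590268-65590397 (plus strand) for Tnip3 and chr8:88696868-88697027 (plus strand) for Cyld. In GENCODE M21 the stretches of Tnip1 and Cyld lay upstream of the gene, and those of Tnfaip3 and Tnip3 within the span of longer transcripts but outside exons of the gene. Tnfaip3 held matches at bases -125 to -116 and -12 to -3, counted back from the start; a second annotated start of this gene had no match. In Tnip1, matches at 3 overlapping positions covered bases -58 to -47. The match of Tnip3 lay at bases -54 to -45 and that of Cyld farther out, at bases -155 to -146. A match in a gene that rose and in a gene that fell is a description of letters, and binding was not measured in these libraries.

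**Figure D1:**
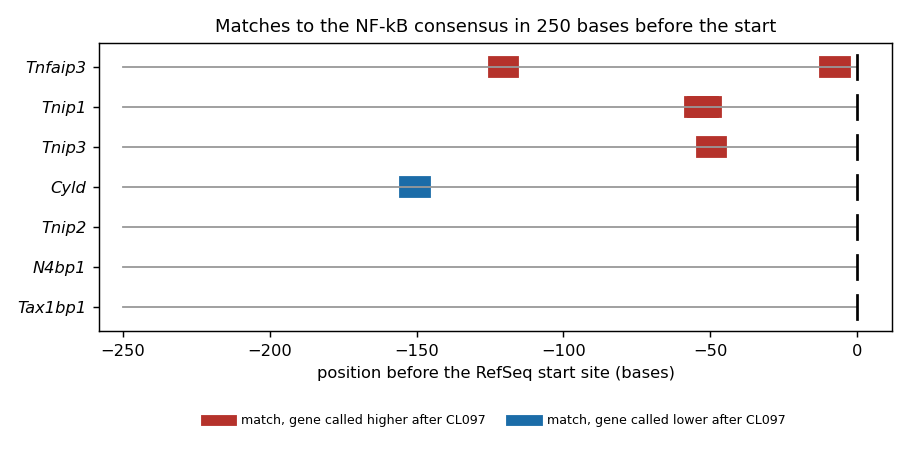
Positions of NF-kB consensus matches (boxes) in the 250 bases before the RefSeq start of 7 genes, with the start at the right edge (black bar). Boxes are coloured by the call after CL097, and the start with matches is drawn for Tnfaip3. Tnfaip3 holds 2 separate boxes, Tnip1, Tnip3 and Cyld hold 1 each, and the other genes hold none.

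Values are CPM, read counts scaled to the library total, as quantile-normalized on the log2 scale by the authors. After CL097 5 of the 9 genes rose, 3 fell and 1 did not pass the test. Calls required an adjusted p (Benjamini-Hochberg, limma) under 0.05 together with a log2 fold change beyond 0.5 in either direction. Of all 11844 tested genes 24.0% were called higher and 23.6% lower, 47.6% in all, so a call by itself is common in this comparison. With the replicate number as a block the same 5 and 3 genes were called, against 25.9% higher, 25.8% lower and 51.7% in all. The median absolute log2 fold change was 0.97 for the 9 genes and 0.61 for all tested genes. The groups did not overlap for 8 of the 9 genes, against 65.8% of tested genes (33.4% higher and 32.4% lower in every CL097 library). Over 2-fold, 3 of the 9 rose, against 12.9% of tested genes, and 1 fell, against 13.7%. Because the 9 genes were chosen with earlier results of these data known, these comparisons describe the group and do not test it. In bulk RNA fewer cells that express a gene and less of its RNA per cell cannot be told apart.

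Tnfaip3 (chromosome 10, 19000910 to 19015657, minus strand, 21 annotated exons), the gene of A20, was at 136, 152 and 167 CPM in the unstimulated libraries 1 to 3. In the CL097 libraries it was at 429, 481 and 559.5 CPM. Every CL097 library thus lay above every unstimulated library, with a gap of 1.36 on the log2 scale. Tnfaip3 rose 3.23-fold (log2 1.69, SE 0.12, adjusted p = 9.17e-06 in limma), from 151 ± 15.5 to 489.8 ± 65.7 CPM (SD, n = 3). The rise within equal numbers was 1.66, 1.66 and 1.75 on the log2 scale, and the SD of these differences, 0.050, was the smallest among the 9 genes. Its log2 fold change was higher than that of 95.4% of tested genes.

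The 3 Tnip genes rose as well. Tnip1 (chromosome 11, 54910785 to 54962917, minus strand), whose protein brings A20 to NEMO, was at 163, 173 and 151 CPM without a stimulus and at 325, 300.2 and 316 CPM with CL097. It rose 1.93-fold (log2 0.95, SE 0.08, adjusted p = 1.91e-05 in limma), and the lowest CL097 library was well above the highest unstimulated one. Tnip2 (chromosome 5, 34496087 to 34513991, minus strand), whose protein also holds the kinase TPL2 and NF-kB p105 in a complex, was less abundant, at 11.8, 13.4 and 11.8 CPM without a stimulus. With CL097 it reached 28.0, 24.5 and 23.2 CPM, a rise of 2.04-fold (log2 1.03, SE 0.13, adjusted p = 0.000248 in limma). The groups of both genes were separated by 0.80 and 0.79 on the log2 scale, although the order of the numbers differed between them.

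Tnip3 (chromosome 6, 65525313 to 65634040, plus strand), an ABIN gene known as inducible in macrophages, had the lowest level of the 9 genes and the largest fold. Unstimulated libraries 1 to 3 held 1.35, 2.82 and 3.74 CPM, and CL097 libraries held 7.57, 10.3 and 15.3 CPM. The groups did not overlap, and Tnip3 rose 4.38-fold (95% interval 2.26 to 8.48, log2 2.13, SE 0.41, adjusted p = 0.00259 in limma). Libraries of number 1 were lowest in both groups, by 1.27 (unstimulated) and 0.73 (CL097) on the log2 scale below the mean of numbers 2 and 3. The SD of log2 CPM among unstimulated libraries, 0.76, was the largest of the 9 genes in that group, so the size of this fold is the least certain. Within equal numbers the rise was 2.49, 1.87 and 2.03.

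Markers of monocytes and macrophages varied between the numbers in the same order as Tnip3. Tnfaip3 had this order in both groups too, and Rnf11 had it in the unstimulated libraries. The summed level of the markers over 8 genes, all above the filter, was 109, 293 and 409.9 CPM in unstimulated libraries 1 to 3. In CL097 libraries it was 76.8, 148 and 210.2 CPM. This sum was lower with CL097 than without it in each number, while Tnip3 was higher with CL097 in each number. In limma 0 of the 8 markers were called in either direction (1, Lyz2, was lower at an unadjusted p under 0.05), but the block fit called 4 of them lower. The purification depleted cells that carry CD11b, CD11c or Gr-1, surface proteins of myeloid cells. The part of cells with these markers in the levels of Tnip3, Tnfaip3 and Rnf11 was not tested. Neutrophil markers summed to 24.8 to 61.3 CPM in unstimulated and 14.3 to 43.0 CPM in CL097 libraries, also lowest in number 1. In limma 0 of 6 tested genes were called, and 0 had an unadjusted p under 0.05, but 3 were called lower with the block.

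Rnf11 (chromosome 4, 109451098 to 109484728, minus strand), a small RING protein gene of the A20 complex, showed the smallest called change. It was at 42.3, 51.8 and 62.1 CPM without a stimulus and at 88.2, 80.1 and 78.3 CPM with CL097. It rose 1.60-fold (log2 0.67, SE 0.14, adjusted p = 0.00355 in limma), and the gap between the groups was 0.33 on the log2 scale. The rise was uneven, at 1.06 in number 1, 0.63 in number 2 and 0.33 in number 3. With number 1 left out of both groups its log2 fold change was 0.48 (adjusted p = 0.00662 in limma), short of the fold threshold, so that 4 of the 9 genes were then called higher against 25.3% of all tested genes, and 3 lower against 25.1%.

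**Figure D2:**
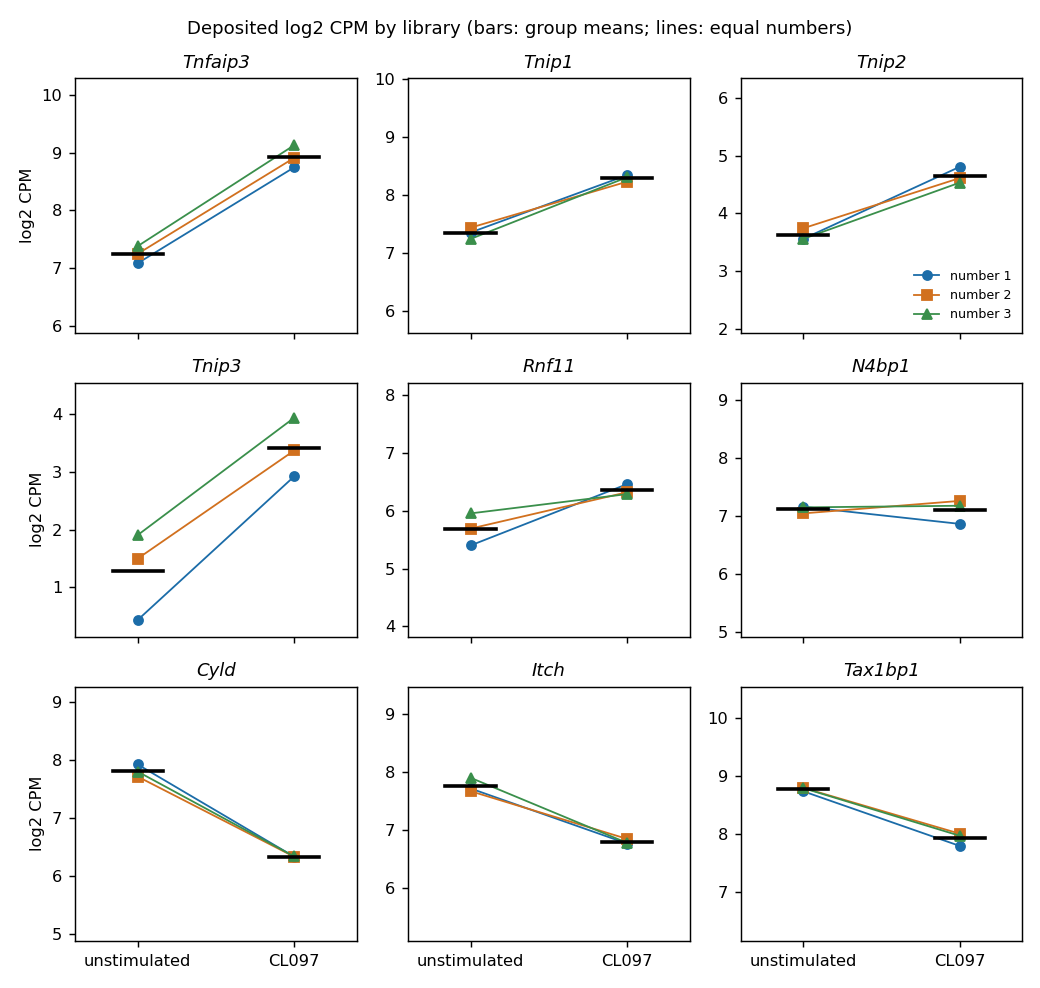
Deposited log2 CPM of the 9 genes in the 3 unstimulated and 3 CL097 libraries, with lines joining libraries of equal number and black bars at the group means. Each vertical axis spans the same width of 4.4 log2 units around the mean of its gene. The lines of Tnfaip3 run nearly parallel, those of N4bp1 cross, and those of Cyld meet at nearly the same CL097 value.

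Cyld, the second deubiquitinase of the group, went the other way. Cyld (chromosome 8, 88697028 to 88751945, plus strand, 34 annotated exons), a tumour suppressor gene whose protein trims linear and TRAF-built chains, was at 243, 210.4 and 223 CPM in unstimulated libraries. In all 3 CL097 libraries it lay between 80.4 and 80.7 CPM. It was 2.80-fold lower (log2 -1.48, SE 0.08, adjusted p = 2.45e-06 in limma), with a gap of 1.38 on the log2 scale between the groups. The SD of 0.0029 (log2) among the CL097 libraries was much smaller than the 0.11 among the unstimulated libraries; the deposited values had passed through quantile normalization, and the part of that step in so small a spread was not tested.

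Itch and Tax1bp1, partners of A20 in shutting off TRAF6, fell with Cyld. Itch (chromosome 2, 155133509 to 155226855, plus strand), a HECT ubiquitin ligase gene whose loss in mice causes immune disease, went from 210.4, 204 and 239 CPM to 109, 115 and 109.5 CPM. It was 1.96-fold lower (log2 -0.97, SE 0.08, adjusted p = 2.56e-05 in limma). Tax1bp1 (chromosome 6, 52713729 to 52766780, plus strand), whose protein binds A20 and ubiquitin and also serves as an autophagy receptor, went from 426, 444 and 443 CPM to 221, 256 and 250.04 CPM. It was 1.81-fold lower (log2 -0.86, SE 0.08, adjusted p = 3.54e-05 in limma). For both genes the 3 CL097 libraries lay below all unstimulated libraries and all 3 numbers showed the fall. Tax1bp1 shares 160 exon bases (1.60% of its exon length) with an annotated gene on the opposite strand, and the strand setting of the counting is not given in the sources used here.

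N4bp1 (chromosome 8, 86808160 to 86885258, minus strand), whose protein binds ubiquitin and restrains NF-kB after TLR signals until a caspase cuts it, was the only one of the 9 that was not called. It was at 143, 132 and 142 CPM without a stimulus and at 116, 153 and 145 CPM with CL097. The CL097 libraries surrounded the unstimulated ones, with number 1 the lowest and number 2 the highest. Its log2 fold change of -0.02 (SE 0.11, adjusted p = 0.898 in limma) had a 95% interval of -0.27 to 0.23, which leaves out the sizes seen for the other 8 genes. It was lower in 1 number and higher in 2, and its sign turned to a log2 fold change of 0.12 with number 1 left out of both groups.

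**Figure D3:**
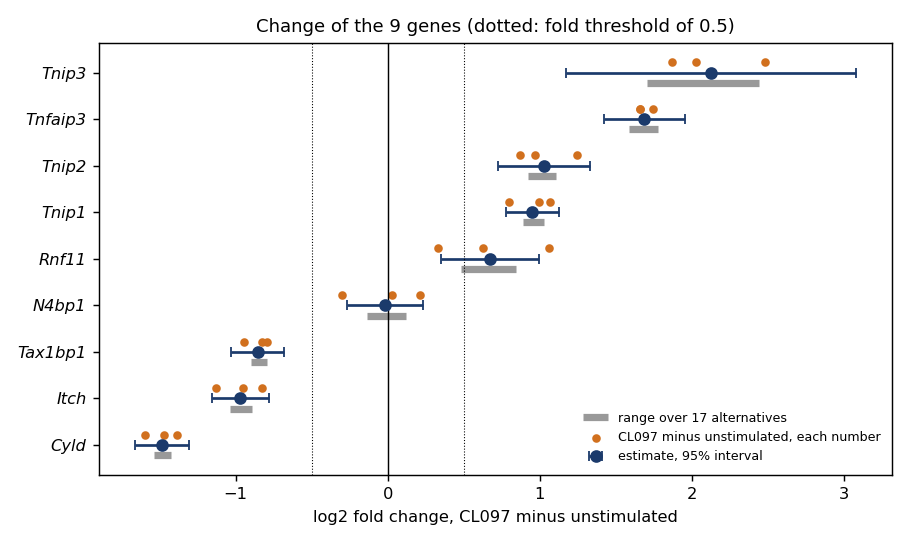
Log2 fold change (CL097 minus unstimulated) of the 9 genes, with the 95% interval of the limma estimate, the difference in each number (orange) and the range over 17 alternative settings (grey). Dotted lines mark the fold threshold of 0.5. The intervals of 8 genes lie to 1 side of 0, that of Tnip3 is the widest, and that of N4bp1 spans 0.

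A20 and CYLD both take ubiquitin chains apart, and the balance of their transcripts differed between the groups. The CPM of Tnfaip3 divided by that of Cyld was 0.558, 0.722 and 0.746 in the unstimulated libraries and 5.33, 5.98 and 6.93 in the CL097 libraries. The log2 ratio went from -0.58 ± 0.23 to 2.596 ± 0.19 (SD, n = 3), a 9.02-fold shift (log2 3.17) with no overlap between the groups. An exact permutation test over the 6 libraries gave p = 0.1 (two-sided), the smallest value that 3 against 3 libraries allow. This p was fixed in advance, because Tnfaip3 rose and Cyld fell without overlap between the groups. The log2 shift is the rise of Tnfaip3 plus the fall of Cyld given above, so it adds no separate result. The shift in equal numbers was 3.26, 3.05 and 3.22 on the log2 scale.

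To compare levels between genes, CPM was divided by the length of all annotated exons of a gene (GENCODE M21, GRCm38) in kilobases. Without a stimulus Tnip1 (45.9 ± 3.09 CPM per kb) and Tax1bp1 (43.8 ± 1.00) were the most abundant, and their library ranges overlapped. Itch (22.4 ± 1.94), Tnfaip3 (21.0 ± 2.14) and Cyld (18.0 ± 1.32) followed, each overlapping with the next. Rnf11 (12.2 ± 2.33) and N4bp1 (11.4 ± 0.50) overlapped too, and Tnip2 (4.59 ± 0.34) and Tnip3 (0.242 ± 0.11) stood apart below them.

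With CL097 the order changed. Tnip1 (88.7 ± 3.52 CPM per kb) stayed at the top, Tnfaip3 (67.8 ± 9.09) moved from the fourth place to the second, and Cyld (6.40 ± 0.013) moved from the fifth to the eighth. Tax1bp1 (24.3 ± 1.87) and Rnf11 (19.3 ± 1.24) lay between, each with a library range of its own. Itch (11.4 ± 0.35) lay above Tnip2 (9.39 ± 0.93) without overlap, while N4bp1 (11.3 ± 1.59) overlapped with both. Tnip3 (1.01 ± 0.36) stayed lowest. Annotated exons include those of transcripts that B cells may not use, which makes such levels approximate.

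**Figure D4:**
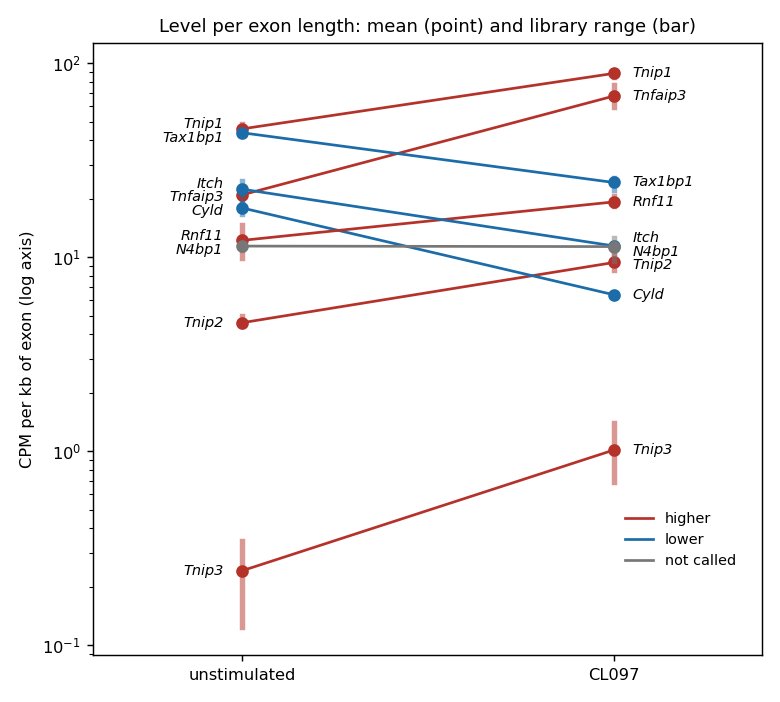
Level of the 9 genes in CPM per kb of annotated exon (log axis) in the unstimulated and the CL097 group, as group means (points) with the range of the 3 libraries (bars). Genes called higher are red, lower blue and not called grey. The lines of Tnfaip3 and Cyld start side by side near 20 CPM per kb and end far apart, at 67.8 and 6.40.

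The rest of the ubiquitin machinery around NF-kB was read from 7 lists of 74 genes, of which 70 passed the filter. Of these, 10 rose (14.3%), 12 fell (17.1%) and 48 were not called, with a median log2 fold change of -0.08, against 24.0% higher, 23.6% lower and a median of 0.002 over all tested genes. Many changes were small: 44 of the 70 (62.9%) had an adjusted p under 0.05 in limma, close to the 58.9% of all tested genes. Genes other than the largest rise and fall of each list are named because the counts are small, after their values were seen.

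The list of enzymes that build chains, with the TRAF family, held calls in both directions. Each share was below that of all tested genes, of which 24.0% were called higher and 23.6% lower. Among 15 tested genes 3 rose, led by Traf1, a TRAF adaptor without the RING domain of a ligase, from 70.7 ± 14.8 to 406 ± 57.3 CPM (5.78-fold), with Birc3, a cellular IAP ligase, 1.81-fold and Ube2v2, a partner of the E2 enzyme UBC13, 2.16-fold higher. Traf5 was 2.97-fold lower, from 48.1 ± 0.55 to 16.4 ± 2.65 CPM, Ube2d1 1.87-fold and the TLR pathway ligase Peli1 1.49-fold lower. Traf6, the ligase that A20, ITCH and TAX1BP1 restrain, had a log2 fold change of 0.36 (SE 0.06), below the fold threshold. Of the 5 linear chain genes only Sharpin, a subunit of the linear ubiquitin ligase, was called, at 1.75-fold lower. So small a list is not set against the shares of all tested genes. The partners of Sharpin, Rnf31 (log2 -0.08, SE 0.12) and Rbck1 (0.07, SE 0.09), were not called. Nor were the linear chain deubiquitinase Otulin (0.40, SE 0.10) and the CYLD adaptor Spata2 (-0.18, SE 0.09).

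Among 15 chain readers and kinases 2 rose (13.3%) and 1 fell (6.67%), against 24.0% and 23.6% of all tested genes. Optn, which encodes the ubiquitin-binding autophagy receptor optineurin, went from 15.0 ± 1.47 to 45.7 ± 6.61 CPM (3.03-fold higher), and Ikbke, an IKK-related kinase gene, was 2.42-fold higher. Ikbkg, the gene of NEMO, the chain-binding subunit of the IKK complex, was 1.76-fold lower, from 89.7 ± 2.43 to 51.2 ± 6.21 CPM. Of 14 other deubiquitinases Usp10 rose 2.30-fold, to 152 ± 8.37 CPM, and Otud4 1.89-fold. Otud7b, an A20 relative of the OTU family that acts on TRAF3, was 1.54-fold lower. Of these deubiquitinases 14.3% were called higher and 7.14% lower, both below the shares of all tested genes.

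Relatives of the members were read in the same way. Of 9 genes of ITCH-like ligases and their adaptors 0 rose and 2 fell (22.2%, against 23.6% of all tested genes). The ligase gene Nedd4l was 1.87-fold lower. Ndfip1, which encodes an activator of ITCH, was 1.82-fold lower, from 104 ± 9.41 to 57.0 ± 0.59 CPM. In limma 5 of the 9 genes were lower and 0 higher at an unadjusted p under 0.05. The share of all tested genes at that threshold was not counted by direction, so nothing is read from this count. At an adjusted p under 0.05, without regard to direction, the share was 55.6%, close to the 58.9% of all tested genes. The block called the same numbers as the fit without it. Among 6 tested RNase-domain relatives of N4bp1 and its namesake N4bp2, Zc3h12c rose 4.11-fold and Zc3h12a, the gene of Regnase-1, 2.33-fold, whereas N4bp2 was 1.75-fold lower. In this list 33.3% were called higher and 16.7% lower, against 24.0% and 23.6% of all tested genes.

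The list of proteases that cut members of the group, with their partners, held 3 genes that fell and 1 that rose out of 6. Of all tested genes 23.6% were called lower and 24.0% higher. These 6 genes were chosen with earlier results of these data known, so the comparison describes the list and does not test it. Malt1, the paracaspase that cleaves A20 and CYLD in antigen-stimulated lymphocytes, went from 261 ± 7.78 to 132 ± 2.53 CPM (1.98-fold lower). Casp8, a caspase that cuts CYLD and N4BP1, was 1.49-fold lower. Cflar, which encodes the caspase regulator FLIP, rose 4.17-fold, from 128 ± 19.1 to 531 ± 25.6 CPM. Bcl10 (log2 -0.46, SE 0.08, adjusted p = 0.00184 in limma) was not called, short of the fold threshold only. Fadd (log2 -0.12, SE 0.16, adjusted p = 0.540 in limma) was not called either.

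**Figure D5:**
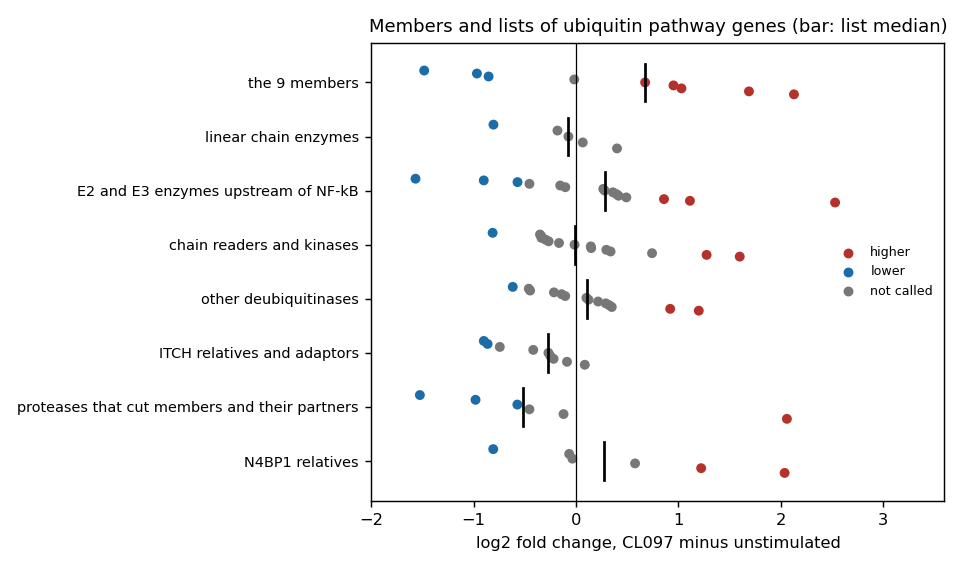
Log2 fold change (CL097 minus unstimulated) of each of the 9 genes and of the tested genes of 7 lists, 1 point per gene, coloured by call, with a bar at each median. Among the 9 genes 8 points are coloured, and over the 7 lists together 48 of 70 points are grey. Grey are 2 of 6 points in the list of proteases and 3 of 6 among the N4BP1 relatives.

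The genes whose profile over the 6 libraries was most like that of Tnfaip3 were sought among 8172 tested genes whose mean reached 10 CPM, by the Euclidean distance between log2 profiles centred on their means. The nearest were Optn (distance 0.157), Gypc (0.179), Nfkbia (0.219), the gene of the NF-kB inhibitor IkB-alpha, Irf4 (0.227), a transcription factor of activated B cells, and Cd44 (0.231), against a median distance of 2.12. For Cyld the nearest included Cdc42se2 (0.0465), Ppp2r5c (0.120), Scp2 (0.128) and Pqlc3 (0.156), with a median distance of 1.92. With only 2 conditions a like profile means little more than a like fold change. The log2 fold changes of the first 5 genes ran from 1.58 for Cd44 to 1.81 for Gypc, around that of Tnfaip3.

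Other cell types were read from marker lists. The 7 B cell markers summed to 6118 to 7007 CPM in unstimulated and to 2529 to 3035 CPM in CL097 libraries, and 5 of them fell (Ms4a1, Cd79a, Cd79b, Cd22 and Blk). The falls of Cyld, Itch and Tax1bp1 thus went along with falls of genes that define B cells. All 3 Cd3 chain genes stayed below the filter, as did the NK genes Ncr1, Klrb1c and Gzma. Summed T cell markers were at 50.8 to 71.6 and 53.3 to 94.1 CPM, most of it Lck, with Cd8a and Cd8b1 called higher at low levels. NK markers were at 3.70 to 6.11 and 2.04 to 3.29 CPM (Klrd1 fell), dendritic cell markers at 29.9 to 49.3 and 75.7 to 93.9 CPM (Zbtb46 rose) and plasma cell markers at 780.2 to 1322 and 406 to 624 CPM (Jchain, Sdc1 and Xbp1 fell). Zbtb46 alone was at 6.73 to 10.1 CPM in unstimulated and 41.6 to 58.3 CPM in CL097 libraries. With the block 1 of 4 tested dendritic cell markers was called higher and 1 lower, and 2 of 2 tested NK markers were called lower. Erythroid markers ranged from 205 to 5226 and from 210.1 to 7436 CPM, lowest in number 1 in both groups, with 0 of 5 tested genes called in limma and 0 at an unadjusted p under 0.05, but 3 called higher with the block. The part of other cells in the values of the 9 genes was not tested.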

How the data were processed

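RNA was read as poly(A) libraries on an Illumina NextSeq500. Per the labels the authors used Trim Galore 0.6.5, STAR 2.6.1a with mm10 and featureCounts (Subread 2.0.1); per the study's methods they then applied voom with quantile normalization. They deposited log2 CPM for 23420 symbols, 1 file per library. Read counts were not used here, so the depth reached is unknown (the methods give a target only) and no counting interval is given; the precision rests on 3 libraries per group. Between 10906 and 10997 genes per library were at or above 1 CPM. Because of quantile normalization every change is measured against the rest of the library.

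Genes at or above a log2 value of -1 (0.5 CPM) in at least 3 libraries were kept (11844), with no pseudocount. A linear model with the group as only term was fitted per gene in limma 3.58.1 (R 4.3.3) with a mean-variance trend, two-sided, and was tested on simulated data. The ratio of Tnfaip3 to Cyld was tested in SciPy 1.17.1. Coordinates and exon lengths are from GENCODE M21 (GRCm38, the assembly of mm10), promoters from RefSeq GRCm38.p6. Symbols absent from the files were matched through RefSeq synonyms (Otulin is listed as Fam105b). The sources used here do not tie single libraries to single mice, so p-values measure the spread between libraries, which may be technical.

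Whether libraries of equal number share a mouse is not given in the labels. Across genes, the deviations of equal-numbered libraries from their group means correlated at 0.568, 0.326 and 0.458, all over the limit of 0.1. Differences within equal numbers are therefore given, and the number was fitted as a block as an alternative. The SE, intervals and adjusted p given for single genes come from the main fit, which did not pair libraries. Unequal numbers 2 and 3 also reached 0.209 and 0.172. Equal numbers shared 2655 to 3108 identical gene values and unequal numbers 347 to 404, a property that the sources used here do not describe. Whether the values were adjusted for the number before deposit was not tested; such a step would alter the spread between numbers, and with it the SE and p of both fits. Alternatives were the replicate number as a block, other filters, a pseudocount of 1 CPM, other variance models and scalings, and libraries left out singly or by number.

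All 9 members are named. By rule, the called genes with the largest rise and fall of each other list are named, or any gene of a list with at most 5 tested genes. Further genes of the lists were named outside this rule, after their values were seen. The members and lists were chosen with earlier results of these data known. Some genes that this rule would name are not reported here.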

Additional observations from a re-analysis of the deposited data

How the results depend on the processing

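Across 17 alternative settings Tnfaip3, Tnip1, Tnip2, Tnip3, Cyld, Itch and Tax1bp1 kept their direction and their call. The log2 fold change ranged from 1.59 to 1.78 for Tnfaip3, from 1.71 to 2.44 for Tnip3 and from -1.53 to -1.43 for Cyld, with highest adjusted p in limma of 0.00103, 0.0299 and 0.000411. Rnf11 lost its call on size without number 1 in both groups, as given above, and ranged from 0.48 to 0.85. N4bp1 was not called in any setting and ranged from -0.13 to 0.12; it turned positive without unstimulated replicate 1 (0.003), without CL097 replicate 1 (0.10) and without number 1 (0.12). The replicate number as a block changed no call among the 9 genes or the 70 pathway genes (5 and 10 higher, 3 and 12 lower) and called 3064 of all tested genes higher and 3057 lower, 51.7% in all. The number of lower pathway genes ranged from 11 to 15. The Tnfaip3 to Cyld log2 ratio shifted by 3.04 to 3.26 in all its alternatives. As a block over numbers it shifted by 3.17, with an exact sign-flip p = 0.25, the smallest that 3 pairs allow. The opposite changes of Tnfaip3 and Cyld in each number fixed this p too in advance. Unknown depth limits Tnip3 most, the gene with the lowest level.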
